A study of Mus musculus with 6 samples.

Results

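The insulin-like growth factor (IGF) family described here holds 10 genes, namely the ligands Igf1 and Igf2, the receptor Igf1r and the 7 binding proteins Igfbp1 to Igfbp7. A gene was taken from the authors' table of array values when a row of the array is annotated with that symbol alone. All 10 genes had such a row, 1 each, among 19938 genes tested. The arrays came from dissected pancreata of E13.5 mouse embryos, the stage at which the pancreatic epithelium is branching into the surrounding mesenchyme. Mutant embryos were Pdx1-Cre; Ctnnb1tm1Mmt/+ (labelled Pdx-Cre beta catenin-exon3 floxed, active), in which Cre recombinase driven by the Pdx1 promoter removes exon 3 from 1 copy of Ctnnb1 in the pancreatic primordium and so stabilizes β-catenin. Control embryos were labelled wild type, and the sources used here do not say whether they carried the Cre or the floxed allele alone. RNA from 3 pancreata was pooled for each sample, giving 3 mutant and 3 control pools with 1 array each (Affymetrix Mouse Gene 1.0 ST). Only cells of the Pdx1 domain recombine, while the pools hold epithelium, mesenchyme, vessels and nerves together.

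IGF1 and IGF2 are secreted growth factors that signal through the IGF1 receptor, a receptor tyrosine kinase, to the insulin receptor substrates and the PI3K-AKT pathway, and IGF2 is the main IGF of the fetus. IGF binding proteins hold the ligands outside the cell, extend their life and limit or deliver them to the receptor, and proteases that cleave the binding proteins release the ligand again. IGF binding protein 7 binds the ligands only weakly and is best known from vessel walls.

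The genes of the family that passed the test were all binding proteins. Igfbp1, Igfbp2, Igfbp3 and Igfbp4 were higher in the mutant, by 1.34-fold to 3.08-fold, and Igfbp5 was 1.54-fold lower. Igf1, Igf2, Igf1r, Igfbp6 and Igfbp7 did not pass. This is 4 genes higher and 1 lower of 10, where 6.59% of all genes tested were higher and 7.53% lower at an adjusted p under 0.05 from limma, the test of a linear model with an empirical Bayes step (14.1% in either direction). The share called was larger among the 9969 genes above the median level, with 1137 higher and 1105 lower. That setting leaves out Igfbp1 and Igfbp6 and had 3 members higher and 1 lower. Members and the lists below were chosen with earlier results of these data known, so the shares are no test of a list. The 3 mutant arrays did not overlap the 3 control arrays for 8 of the 10 genes, 5 of them higher and 3 lower, where this was so for 30.9% of all genes. The median log2 change of the family was 0.04, beside 0.03 over all genes tested, while the median size of the change regardless of sign was 0.41, beside 0.13 over all genes. In whole tissue, fewer cells of a type and less RNA per cell cannot be told apart. All array values are on a log2 scale and all log2 changes are mutant minus control.

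**Figure D1:**
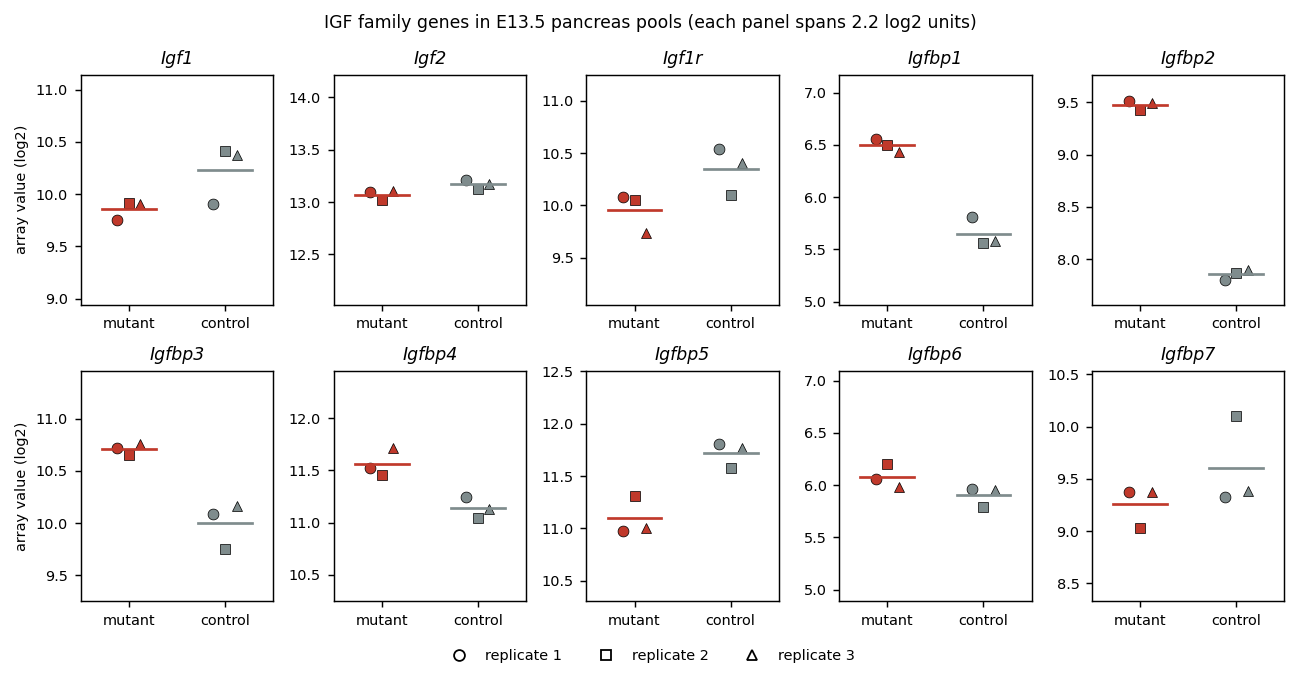
Array values (log2, vertical axes) of the 10 IGF family genes in 3 mutant pools (red, left) and 3 control pools (grey, right), with symbols for the replicate numbers and horizontal bars at the means. Each panel spans the same number of log2 units, and the groups lie apart most widely for Igfbp2, at 9.42 to 9.51 in mutant pools and 7.80 to 7.90 in control pools.

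As checks of genotype and tissue, Axin2, a direct target of β-catenin, had array values of 9.87 to 10.20 in mutant pools and 8.44 to 8.75 in control pools (log2 change 1.47 with a standard error, SE, of 0.12, adjusted p = 2.94e-05 from limma), and Ctnnb1 itself changed by 0.28 (SE 0.11, adjusted p = 0.148), a value that does not separate the recombined from the intact transcript. Of 6 genes of the embryonic pancreas 5 were lower, with log2 changes of -4.16 for Pdx1 (SE 0.10, adjusted p = 2.68e-08), -4.61 for Neurog3, -3.86 for Cpa1, -2.51 for Nkx6-1 and -2.30 for Ptf1a, and Sox9 did not pass (log2 change -0.33 with SE 0.13, adjusted p = 0.14). The study already lists these 5 genes as downregulated on the same arrays, so their fall is not an independent check. For Sox9, the study reports a significant decrease in mutant embryonic pancreata by quantitative RT-PCR, a different method. Arrays correlated at 0.993 to 0.997 within a genotype and at 0.973 to 0.979 between genotypes across genes, which are not independent replicates. Over all genes, 1313 were higher and 1502 lower. Without mutant replicate 1, 843 were higher. The higher genes made up 46.6% of all calls, and 36.0% (953 higher and 1697 lower) after centring on housekeeping genes. The housekeeping genes themselves had a median log2 change of 0.0845. Centring on them moved the median log2 change over all genes from 0.033 to -0.025.

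Igfbp2, a binding protein abundant in fetal tissues, changed most. Its array values were 9.51, 9.42 and 9.50 in mutant pools 1, 2 and 3, against 7.80, 7.87 and 7.90 in control pools 1, 2 and 3. Every mutant pool lay more than a full log2 unit above every control pool, and the pools of a genotype lay close together. The means were 9.48 ± 0.046 in mutant pools and 7.85 ± 0.049 in control pools (SD, n = 3 each), a 3.08-fold difference (log2 change 1.62 with SE 0.087, adjusted p = 1.56e-06 from limma). Its log2 change exceeded that of 99.5% of all genes. It passed in each of the 18 alternative settings tried, with log2 changes of 1.56 to 1.66.

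Igfbp1, which in the adult is made in the liver and is repressed by insulin, had array values of 6.56, 6.50 and 6.43 in mutant pools 1 to 3 and 5.81, 5.56 and 5.58 in control pools 1 to 3. Again all mutant pools stood above all control pools, with control replicate 1 the closest. The mean was 6.50 ± 0.063 in mutant pools and 5.65 ± 0.14 in control pools (SD, n = 3 each), 1.80-fold higher in the mutant (log2 change 0.85 with SE 0.10, adjusted p = 0.000315 from limma). These values lie low on the arrays' scale, and no detection calls accompany them. Igfbp1 dropped out of the setting that keeps only genes above the median level and passed in the 17 others.

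Igfbp3 encodes the binding protein that carries most IGF in adult serum, in a complex with the product of Igfals. Its values were 10.72, 10.65 and 10.76 in mutant pools, against 10.09, 9.76 and 10.16 in control pools. The mutant pools were tightly grouped and the control pools wider, with control replicate 2 the lowest. The SD was 0.051 in mutant pools and 0.22 in control pools (n = 3 each), and the means differed 1.64-fold (log2 change 0.71 with SE 0.12, adjusted p = 0.00235 from limma). Without control replicate 2 the log2 change was 0.59, and the gene still passed.

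Igfbp4, whose protein is cleaved by the protease PAPP-A, showed the smallest increase of those that passed. Array values were 11.52, 11.45 and 11.71 in mutant pools and 11.24, 11.04 and 11.13 in control pools. The groups did not overlap, but mutant replicate 2 and control replicate 1 were close. The means were 11.56 ± 0.13 in mutant pools and 11.14 ± 0.10 in control pools (SD, n = 3 each), a 1.34-fold difference (log2 change 0.42 with SE 0.10, adjusted p = 0.0222 from limma). The call did not hold without mutant replicate 1 or 3 or without control replicate 2 or 3, with adjusted p = 0.0664 to 0.0802 from limma, nor with all rows of the array in the fit (adjusted p = 0.077).

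Igfbp5, which encodes a binding protein that attaches to extracellular matrix, was the member that fell. It had array values of 10.97, 11.31 and 11.00 in mutant pools, against 11.80, 11.58 and 11.77 in control pools. All mutant pools lay below all control pools, and replicate 2 was the nearest to the other genotype on both sides. The means were 11.09 ± 0.18 in mutant pools and 11.72 ± 0.12 in control pools (SD, n = 3 each), 1.54-fold lower in the mutant (log2 change -0.62 with SE 0.12, adjusted p = 0.00524 from limma). It passed in all 18 alternative settings, with log2 changes of -0.76 to -0.56.

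The other binding proteins did not pass the test. Igfbp6, whose protein prefers IGF2 to IGF1, had values of 6.06, 6.20 and 5.98 in mutant pools and 5.96, 5.79 and 5.95 in control pools. Although the groups do not overlap, mutant replicate 3 and control replicate 1 nearly touched, and the log2 change was 0.18 (SE 0.10, adjusted p = 0.311 from limma, n = 3 each). Igfbp7 had values of 9.37, 9.03 and 9.38 in mutant pools, against 9.33, 10.10 and 9.38 in control pools. Here the groups overlap, and the distance between the means came mostly from control replicate 2. The log2 change was -0.34 (SE 0.20, adjusted p = 0.326 from limma), and -0.094 without that array (adjusted p = 0.738). Control replicate 2 was also the pool with the highest summed level of 11 acinar genes (14.93 on the log2 scale, against 14.21 and 14.29 in the other control pools and 10.16 to 10.56 in mutant pools). Among control pools it was the highest for endocrine, progenitor, epithelial, smooth muscle, mesothelial and leukocyte genes too. For smooth muscle genes the summed level was 11.78, against 11.66 and 11.75 in control replicates 1 and 3. It was the lowest control pool for mesenchymal genes (14.75, against 14.77 and 14.84) and for neural and glial and erythroid genes. For endothelial genes it lay between the others (12.68, against 12.77 and 12.66 in control replicates 1 and 3), as it did for liver genes. Whether any of this bears on Igfbp7 was not tested. The pooled SD within genotypes was 0.34 for Igfbp7, larger than that of 97.8% of all genes, and 0.047 for Igfbp2, larger than that of only 3.56%.

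**Figure D2:**
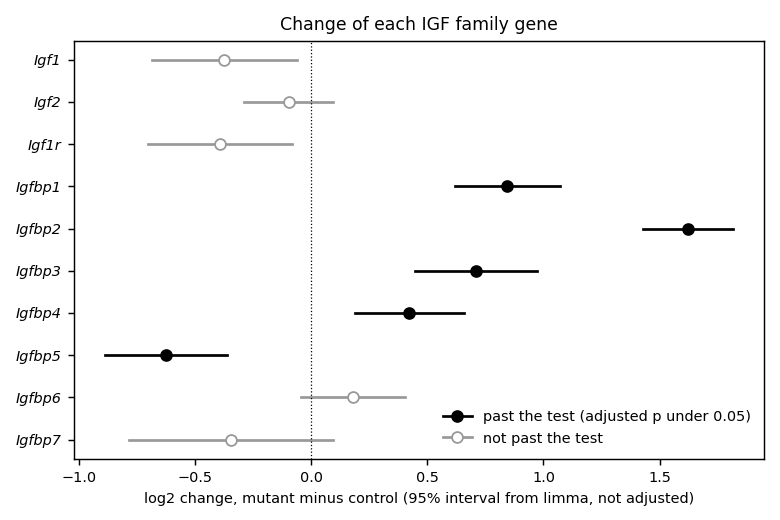
Log2 change, mutant minus control (horizontal axis), of each IGF family gene with its 95% interval from limma, not adjusted for the number of genes. Filled points passed the test at an adjusted p under 0.05, which are the increases of Igfbp1, Igfbp2, Igfbp3 and Igfbp4 (0.42 to 1.62) and the decrease of Igfbp5 (-0.62).

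Neither ligand passed. Igf2, which is transcribed from the paternal allele in the fetus, had array values of 13.09, 13.02 and 13.10 in mutant pools, against 13.21, 13.13 and 13.17 in control pools. The 6 arrays lay close together and near the upper end of the scale, whose highest values were 13.98 to 14.14, and the mutant pools lay just below the control pools. The log2 change was -0.097 (SE 0.086, 95% interval -0.29 to 0.096, adjusted p = 0.56 from limma, n = 3 each), so that a decrease of more than 0.29 on this scale was outside the interval. This is 1 value for transcripts from 4 annotated start sites, and it does not separate them.

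Igf1, the ligand that responds to growth hormone after birth, had values of 9.75, 9.92 and 9.90 in mutant pools and 9.90, 10.41 and 10.38 in control pools. Control replicate 1 lay among the mutant pools, whereas control replicates 2 and 3 stood above them. The log2 change was -0.37 (SE 0.14, 95% interval -0.68 to -0.062, not adjusted, adjusted p = 0.119 from limma). Without control replicate 1 it was -0.54 and passed (adjusted p = 0.0137 from limma).

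The receptor Igf1r had values of 10.08, 10.05 and 9.74 in mutant pools, against 10.54, 10.09 and 10.41 in control pools. All mutant pools were below all control pools, though mutant replicate 1 and control replicate 2 almost touched. The log2 change was -0.39 (SE 0.14, 95% interval -0.70 to -0.082, not adjusted, adjusted p = 0.0985 from limma), and it passed without control replicate 2 (log2 change -0.52, adjusted p = 0.0328). With 3 pools per genotype, an exact two-sided permutation test of a single gene cannot fall below p = 0.1, so the single genes rest on limma.

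**Figure D3:**
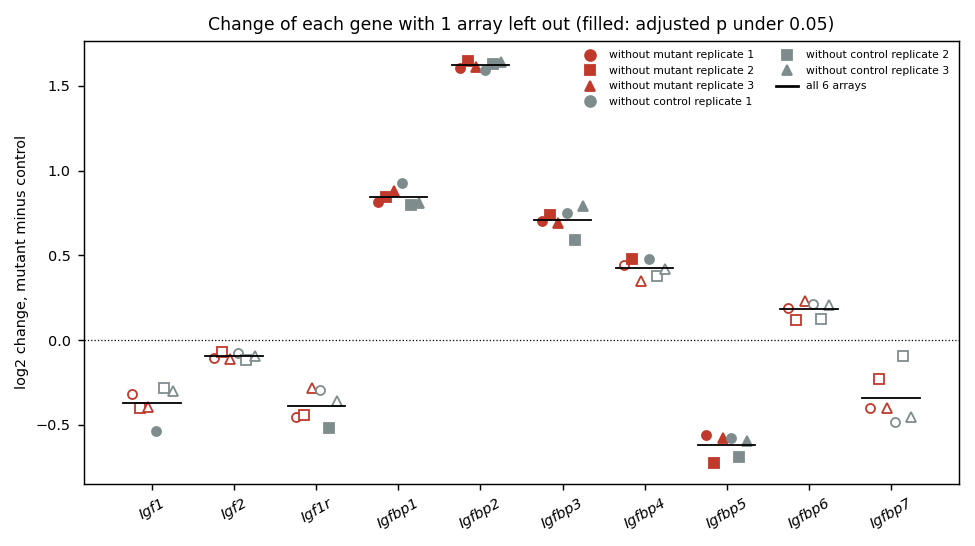
Log2 change, mutant minus control (vertical axis), of each IGF family gene with 1 array left out. Black bars show all 6 arrays, red and grey symbols the mutant or control array left out, and filled symbols an adjusted p under 0.05 from limma. Igfbp4 loses its call in 4 of the 6 settings, and Igf1 and Igf1r each gain one in 1.

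Most of the 5 binding protein genes that passed are neighbours in the genome. In the order of protein-coding genes of RefSeq (GRCm38.p6), Igfbp1 lies next to Igfbp3 on chromosome 11 and Igfbp2 next to Igfbp5 on chromosome 1. The first pair rose together (log2 changes 0.85 and 0.71), and the second went opposite ways (log2 changes 1.62 for Igfbp2 and -0.62 for Igfbp5). The genes on the outer sides did not pass, with log2 changes of 0.068 for Adcy1 and 0.33 for Tns3 around the first pair (adjusted p = 0.734 and 0.156 from limma) and 0.18 for Rpl37a and -0.013 for Tnp1 around the second (adjusted p = 0.48 and 0.975). Next to Igfbp4, Tns4 was higher (log2 change 0.52 with SE 0.14, adjusted p = 0.0337), as was Adgrl3 next to Igfbp7 (0.88 with SE 0.12, adjusted p = 0.000686). Igf2 lies beside Ins2, which fell by 1.93 on the log2 scale (SE 0.23, adjusted p = 0.000363), beside the log2 change of -0.097 of Igf2 itself.

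The sequences in front of the start sites were read for motifs, because the genotype acts through β-catenin and its T-cell factor (TCF) partners. All 10 genes matched RefSeq promoters of GRCm38.p6, with 14 start sites in all (4 for Igf2 and 2 for Igfbp2), and the 250 bases before each start were searched on both strands for CTTTGAT and CTTTGAA, which hold the core that TCF proteins recognise, and for TATAAA. A TCF core was found at 1 of the 14 starts, that of Igf1, where 7.48% of all 32851 promoters of this length hold one. TATAAA was found before Igfbp4 and Igfbp6 (2 of 14 starts, and 12.4% of all promoters). In Igfbp4 the match lies on the gene's own strand, and in Igfbp6 on the opposite strand, 148 bases before the start. The 5 binding protein genes past the test are shown to set the neighbours beside each other, with Igf1 as the only match to the TCF core, each 5′ to 3′ on the gene's own strand. Capitals mark a motif match, which is TATAAA in Igfbp4 (first base 28 before the start) and CTTTGAA in Igf1 (first base 186 before the start), and the other sequences held none of the 3 motifs. For Igfbp2 the first of its starts is shown.
Igfbp2 (chr1:72824230-72824479, plus strand): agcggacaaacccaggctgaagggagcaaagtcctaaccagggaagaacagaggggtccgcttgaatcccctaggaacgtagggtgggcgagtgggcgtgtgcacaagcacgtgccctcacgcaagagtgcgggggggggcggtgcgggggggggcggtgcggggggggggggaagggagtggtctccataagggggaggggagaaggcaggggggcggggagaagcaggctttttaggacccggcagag
Igfbp5 (chr1:72874866-72875115, minus strand): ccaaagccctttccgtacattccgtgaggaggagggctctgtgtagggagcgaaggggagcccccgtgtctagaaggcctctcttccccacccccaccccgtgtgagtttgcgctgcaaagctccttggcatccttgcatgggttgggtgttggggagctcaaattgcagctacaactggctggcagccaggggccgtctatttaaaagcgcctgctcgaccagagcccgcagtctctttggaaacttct
Igfbp1 (chr11:7197537-7197786, plus strand): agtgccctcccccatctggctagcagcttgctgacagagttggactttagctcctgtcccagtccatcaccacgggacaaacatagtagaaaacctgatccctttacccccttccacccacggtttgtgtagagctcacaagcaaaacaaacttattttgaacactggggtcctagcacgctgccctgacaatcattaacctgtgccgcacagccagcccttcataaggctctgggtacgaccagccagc
Igfbp3 (chr11:7213924-7214173, minus strand): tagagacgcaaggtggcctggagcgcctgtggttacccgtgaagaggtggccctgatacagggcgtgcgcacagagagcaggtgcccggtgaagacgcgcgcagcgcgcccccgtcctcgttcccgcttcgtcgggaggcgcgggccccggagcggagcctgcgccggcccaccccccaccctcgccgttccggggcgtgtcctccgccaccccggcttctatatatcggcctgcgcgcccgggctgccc
Igfbp4 (chr11:99040994-99041243, plus strand): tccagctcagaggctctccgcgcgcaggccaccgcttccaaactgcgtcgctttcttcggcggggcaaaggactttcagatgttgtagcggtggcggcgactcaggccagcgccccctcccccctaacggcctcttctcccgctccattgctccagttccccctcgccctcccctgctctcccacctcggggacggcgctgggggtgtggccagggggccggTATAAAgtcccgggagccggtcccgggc
Igf1 (chr10:87860861-87861110, plus strand): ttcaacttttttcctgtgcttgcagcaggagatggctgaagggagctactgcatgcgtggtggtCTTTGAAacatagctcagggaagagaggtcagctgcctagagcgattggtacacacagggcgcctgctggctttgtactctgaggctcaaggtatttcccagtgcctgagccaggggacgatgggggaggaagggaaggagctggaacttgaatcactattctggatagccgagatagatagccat
The promoters differ in base composition, with 73.2% G and C in Igfbp3, 69.2% in Igfbp4, 67.2% in Igfbp2, 58.8% in Igfbp5, 53.2% in Igfbp1 and 52.8% in Igf1, where the median of all promoters was 52.4%. A match is a run of letters and not a binding site, and enhancers farther away were not searched.

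Other parts of the insulin and IGF system differed as well. Among 12 insulin-family ligands and receptors tested, 3 were lower and 1 was higher (2 to 3 lower with 1 array left out, and 3 only without control replicate 2). This is 33.3% of the list, beside 14.1% of all genes in either direction. Ins2, an insulin gene of the endocrine pancreas, had array values of 5.46 to 5.67 in mutant pools and 7.06 to 8.17 in control pools, and Insrr, the insulin receptor-related receptor, had 5.44 to 5.77 in mutant pools and 6.68 to 7.31 in control pools (log2 change -1.38 with SE 0.16, adjusted p = 0.000231 from limma). For both genes the groups were far apart. Rxfp2, the receptor of the insulin-like peptide INSL3, was higher (log2 change 1.76 with SE 0.13, adjusted p = 1.33e-05). Igf2r, the receptor that takes IGF2 to the lysosome, was lower, with 10.42, 10.35 and 10.24 in mutant pools and 10.77, 10.56 and 10.82 in control pools (log2 change -0.38 with SE 0.10, adjusted p = 0.0373), but it lost its call when any 1 array other than control replicate 2 was left out (adjusted p = 0.0652 to 0.13 from limma). The insulin receptor gene Insr differed by -0.19 in log2 (SE 0.15, adjusted p = 0.496).

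Of 15 genes of the extracellular IGF complex and of the proteases that open it, 3 were lower and 1 was higher (2 to 4 lower with 1 array left out, 2 lower without mutant replicate 1 or 3, and 2 higher without mutant replicate 2). With all arrays this is 26.7% of the list, beside 14.1% of all genes. Igfbpl1, a relative of the binding proteins, was 2.84-fold lower (change of -1.51 in log2 with SE 0.13, adjusted p = 3.21e-05 from limma), and Htra1, a serine protease that cleaves IGF binding proteins, was 2.39-fold lower (change of -1.26 in log2 with SE 0.18, adjusted p = 0.000969). Igfals, the acid-labile subunit of the serum complex, fell by 0.40 on the log2 scale (adjusted p = 0.0213), a call that did not hold without mutant replicate 1 or 3 or control replicate 1 (adjusted p = 0.0738 to 0.0942). Mmp7, a matrix metalloprotease, was higher (log2 change 0.59 with SE 0.10, adjusted p = 0.00305). Both genes lie low on the arrays' scale, with means of 5.55 in mutant and 5.96 in control pools for Igfals, and 6.33 and 5.74 for Mmp7. Pappa, the protease of IGF binding protein 4, had a change of -0.33 (SE 0.14, adjusted p = 0.183), and Pappa2 one of 0.012 (SE 0.13, adjusted p = 0.973).

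Inside the cell, 6 docking proteins and inhibitors next to the receptor and 1 gene of the kinase chain passed. Of 17 adaptors and inhibitors of the receptors, 4 were higher and 2 were lower, a share of 35.3% beside 14.1% of all genes. Irs1 had values of 9.77 to 9.90 in mutant pools and 9.12 to 9.32 in control pools (log2 change 0.66 with SE 0.097, adjusted p = 0.00121 from limma), and Irs2, the other main insulin receptor substrate, had 8.67 to 8.88 in mutant pools and 8.17 to 8.32 in control pools (log2 change 0.50 with SE 0.097, adjusted p = 0.0065). Both docking proteins were thus higher in every mutant pool. Irs4, of the same family, was lower in every mutant pool but did not pass, with values of 6.04 to 6.26 against 6.43 to 6.44 (log2 change -0.28 with SE 0.093, adjusted p = 0.0767 from limma). Socs2, an inhibitor of growth hormone signaling, was higher (log2 change 0.77 with SE 0.11, adjusted p = 0.00102), as was the adaptor Sh2b2 (0.67 with SE 0.11, adjusted p = 0.00267). Grb14, which inhibits the insulin receptor, was lower (log2 change -0.97 with SE 0.13, adjusted p = 0.000739), and so was the docking protein Gab1 (-0.61 with SE 0.10, adjusted p = 0.00263). Of 24 PI3K, AKT, FoxO and mTOR genes tested, 1 passed and was lower, a share of 4.17% beside 14.1% of all genes, and 2 were lower without mutant replicate 3. With all arrays it was Pik3r1, a regulatory subunit of PI3K, with 10.22 to 10.53 in mutant pools and 11.01 to 11.15 in control pools (log2 change -0.75 with SE 0.11, adjusted p = 0.000993). The median log2 change was 0.075 among the adaptors and -0.039 along the kinase chain, and a difference between the lists was not tested.

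Of 16 imprinted genes tested, several of them known with Igf2 from the control of fetal growth, 4 were lower and 1 was higher, with a median log2 change of -0.14. This is 31.25% of the list, beside 14.1% of all genes. Meg3, an imprinted long noncoding RNA, was lower (log2 change -0.68 with SE 0.12, adjusted p = 0.00335 from limma), as were the zinc finger genes Zim1 (-0.56 with SE 0.094, adjusted p = 0.00255) and Peg3 (-0.54 with SE 0.099, adjusted p = 0.00447) and Igf2r, which is also imprinted. Nnat was higher (log2 change 0.56 with SE 0.14, adjusted p = 0.0246), a call lost without mutant replicate 1 or 3 or control replicate 2 or 3 (adjusted p = 0.0778 to 0.0924). Among 5 genes of IGF2 mRNA binding and the Lin28 and Hmga families, Hmga2, a chromatin protein of fetal growth, was higher (log2 change 0.45 with SE 0.11, adjusted p = 0.0177) and lost its call without mutant replicate 1 or control replicate 2 or 3 (adjusted p = 0.0533 to 0.0674). It was the only gene of that list to pass, a share of 20%. None of 6 growth hormone axis genes passed at limma's adjusted p under 0.05, and Jak2, the kinase of the growth hormone receptor, had the smallest p among them (log2 change 0.18 with SE 0.088, adjusted p = 0.229), with none at an unadjusted p under 0.05.

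**Figure D4:**
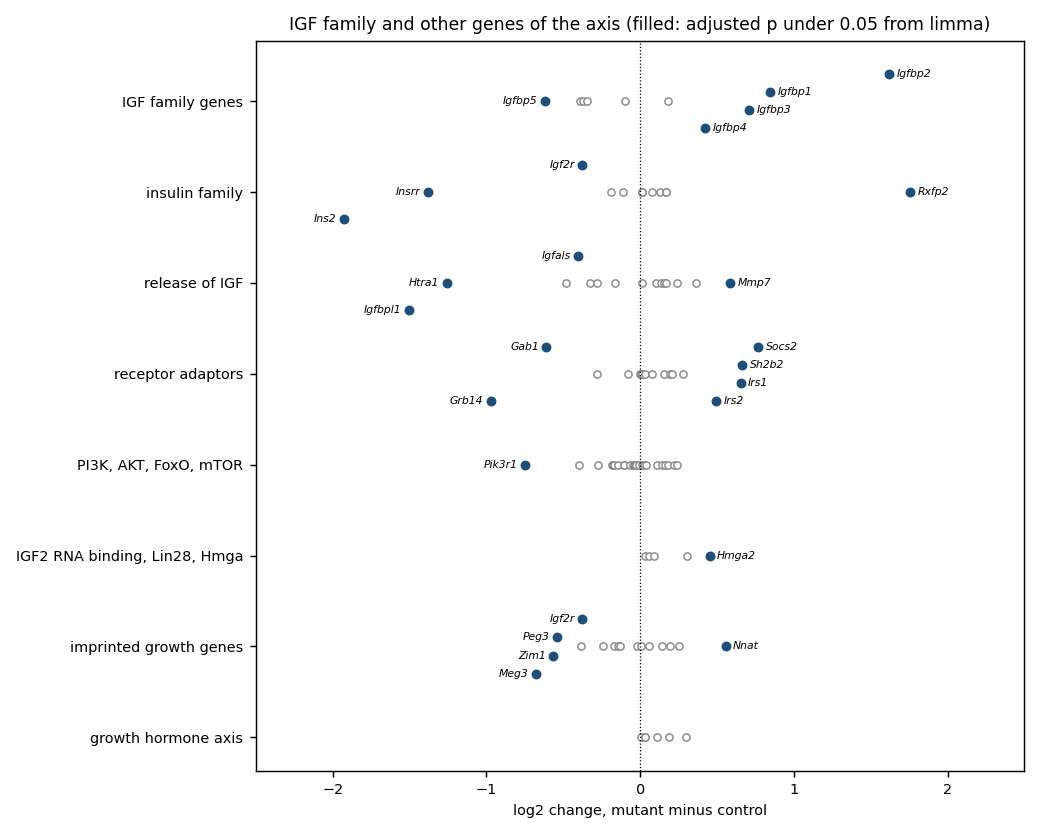
Log2 change, mutant minus control (horizontal axis), of the 10 IGF family genes and of 7 lists of other genes of the axis, 1 point per gene. Filled, named points passed at an adjusted p under 0.05 from limma, among them Ins2 at -1.93 and Rxfp2 at 1.76, while 1 of 24 genes of the PI3K, AKT, FoxO and mTOR list passed.

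Marker genes of several cell types differed between the genotypes beside the IGF genes. Of 15 general epithelial genes tested, 14 were lower (12 to 13 with 1 array left out), and their summed level was 13.56 to 13.66 in mutant pools and 14.38 to 14.61 in control pools (log2). Of 18 general mesenchymal genes, 7 were higher and 3 lower, with a summed level of 14.75 to 14.87 in mutant pools and 14.75 to 14.84 in control pools, so that the totals overlap. Without 1 array the number that was higher lay between 4 and 7. Of 12 smooth muscle genes, 9 were higher and 1 lower, with a summed level of 12.54 to 12.74 in mutant pools and 11.66 to 11.78 in control pools. Endothelial genes were higher for 3 of 12, with summed levels of 12.95 to 13.04 in mutant pools and 12.66 to 12.77 in control pools. That count was 1 to 2 with 1 array left out. Of 9 mesothelial genes 4 were lower, with summed levels of 11.69 to 12.03 in mutant pools and 11.95 to 12.17 in control pools. With 1 array left out 2 to 4 were lower, and 2 were lower without mutant replicate 1 or control replicate 2 or 3. Lower were also 9 of 11 acinar genes, 11 of 13 endocrine genes (with 1 higher), 6 of 10 progenitor genes and 7 of 9 neural and glial genes (with 1 higher), where 7.53% of all genes were lower. Among the neural and glial genes, Ret, Dcx and Gap43 fell most (log2 changes -2.59, -2.32 and -1.88) and Ednrb rose (0.89). Whether nerve cells were fewer was not tested. Of 8 erythroid genes 1 passed and was lower, a share of 12.5%, near the 14.1% of all genes in either direction. None of 12 leukocyte genes passed in limma, 2 were higher at an unadjusted p under 0.05, and of 13 housekeeping genes 3 were higher and 1 lower (30.8% past the test). Only 1 housekeeping gene was higher without mutant replicate 1 or 3 or control replicate 1 or 3, and 2 were lower without control replicate 1. Arrays give no zeros, so that no marker could be called absent. The part of these shifts in the values of the binding proteins was not tested.

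Because the liver is a main source of Igfbp1 after birth, liver genes were set beside it. Of 13 liver genes tested, 6 were lower (5 to 6 with 1 array left out). This is 46.2% of the list, where 7.53% of all genes were lower. Their summed level was 10.87 to 11.03 in mutant pools and 13.28 to 13.46 in control pools. The summed level rests mostly on a few genes with high values in control pools, namely Ambp, Vtn and Ttr, with log2 changes of -4.97, -4.42 and -2.44. Of the 13 genes, 7 did not pass, among them Afp, the fetal albumin relative (log2 change -0.12 with SE 0.12, adjusted p = 0.599). Alb, the serum albumin gene, had array values of 6.85 to 7.03 in mutant pools and 6.75 to 8.50 in control pools (log2 change -0.50 with SE 0.35, adjusted p = 0.441 from limma). Whether the pools held any liver tissue, and whether that bears on Igfbp1, was not tested.

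By their array values relative to their own means, the genes nearest to Igfbp2 over the 6 arrays were Cd55, Dtna and Dach2, at Euclidean distances of 0.12, 0.17 and 0.20 log2 units and with log2 changes of 1.65, 1.61 and 1.56. Those nearest to Igfbp5 were Tspan33, Cemip and Islr2, at distances of 0.10, 0.13 and 0.15 and with log2 changes of -0.66, -0.61 and -0.58. With 2 genotypes and 6 arrays, this likeness reflects mostly the size of the difference between the genotypes.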

How the data were processed

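RNA of 6 pools of E13.5 mouse pancreata, 3 mutant and 3 control, was measured on Affymetrix Mouse Gene 1.0 ST arrays, and genotype and replicate number came from the sample titles. The authors deposited normalized log2 values, 1 per transcript cluster of the array. How background was corrected and values normalized was not given in the sources used here, and no detection calls were used, so that the number of arrays limits the precision. Values were used as deposited. Of 35556 rows, 21789 had 1 gene symbol in the platform annotation, 1621 several and 12146 none, of which those with 1 symbol entered the tests. Of those, 21698 matched RefSeq by Entrez identifier, which changed 0 symbols. Where a gene had several rows (999 genes), that of highest mean was used, leaving 19938 genes.

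The genotypes were compared in R 4.3.3 by limma 3.58.1 (lmFit, eBayes, no covariate, no filter), the test that the study's methods name, with p-values adjusted by Benjamini-Hochberg over all tested genes and called under 0.05. The step was tested on simulated data. Named in the text are all 10 members, Ctnnb1, Axin2 and the 6 tissue genes. The 3 genes nearest to the members with the largest rise and fall are named too. Of each insulin and IGF axis list, the rule named up to 4 genes with the largest change past the test, or the gene with the smallest p. Of the cell type and housekeeping lists, only the neural and glial genes, and in part the liver genes (Ambp, Vtn and Ttr), were named by that rule. Genes named outside that rule, after their values were seen, are Insr, Irs2, Irs4, Gab1, Pappa, Pappa2, Alb, Afp, and the neighbours Adcy1, Tns3, Rpl37a, Tnp1, Tns4 and Adgrl3. The members and the lists were chosen with earlier results of these data known. The lists cover the insulin and IGF axis, 12 cell types and housekeeping genes, and of 270 listed genes 24 had no tested row and are not analysed here. Motifs were searched with Python 3.11.15 in RefSeq promoters of GRCm38.p6. The alternatives were a block on replicate number, leaving out each array, median, housekeeping and quantile scaling, filters on level, averaging a gene's rows, fitting every row, another prior, array weights and other thresholds.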

Additional observations from a re-analysis of the deposited data

How the results depend on the processing

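No member changed direction in any of the 18 settings. In several of them the log2 change cannot move, and only the p-value or the call can. These are the replicate block, the level filters, the fit of every row, the other prior and the other thresholds. Averaging rows leaves it unchanged too, since each member had 1 row. The unadjusted threshold cannot remove a call, and the stricter one cannot add any. Of 178 combinations of a member and a setting, 166 kept their side of the threshold, 6 lost the call (all Igfbp4, with log2 changes of 0.35 to 0.44) and 6 gained one (3 each for Igf1 and Igf1r). Beside the calls given above for left-out arrays, Igfbp4 did not pass at an adjusted p under 0.01, and Igf1 and Igf1r passed with array weights (limma's adjusted p = 0.0358 and 0.0272) and at an unadjusted p under 0.05. The number of members lower was 1, and 3 with array weights, 3 at an unadjusted p under 0.05, and 1 to 2 with 1 array left out (2 without control replicate 1 or 2). The number higher was 3 to 4 throughout. The array weights were uneven, with 7.96 for mutant replicate 1 and 0.39 to 1.38 for the other arrays.

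Over all genes tested, 1313 were higher and 1502 lower. Array weights gave 3025 and 2422, the unadjusted threshold 2695 and 2386, an adjusted p under 0.01 gave 723 higher, and leaving out 1 array gave 843 to 1328 higher and 1132 to 1413 lower. The causes were not tested. Centring arrays on their medians gave 1667 and 1375, so that 54.8% of calls were higher against 46.6% with the values as deposited. With array weights 55.5% were higher.

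The genotypes share replicate numbers, but deviations from the group means correlated at only 0.014, -0.15 and -0.046 for pools of the same number across genes, so the numbers were not taken to pair the pools. With the replicate block 1011 genes were higher and 1274 lower, and 4 members were higher and 1 lower. Signal over background could not be assessed, which among the members limits Igfbp1 and Igfbp6 most, as their values are low. The same holds for other genes with low values, such as Igfals and Mmp7.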
